A study of Homo sapiens with 16 samples.

Results

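The genes described here are 38 human genes that cells switch on in answer to type I interferon, the interferon-stimulated genes. They were taken from a table of 58051 Ensembl gene identifiers by symbol alone, and each of the 38 symbols matched 1 row. They comprise 35 effectors, most of which act against viruses inside or around the cell, and 3 regulators of transcription, STAT2, IRF7 and IRF9. Of the 38, 37 passed the filter on low values (a mean normalized count of at least 10 over all libraries). The exception was PLSCR1, a phospholipid scramblase, which stood between 0 and 8.16 in the 16 libraries.

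RNA was sequenced from P493-6, an immortalised human B cell line whose MYC transgene is repressed by doxycycline and in which the viral protein EBNA2 is active only when oestrogen is present. All libraries therefore come from a single line, and the labels do not say whether replicates are separate cultures, so the p-values measure the spread between these libraries only. There were 4 groups of 4 libraries, all grown in DMEM with serum. High MYC cells had no further additive, whereas medium MYC cells received doxycycline at 0.1 µg/mL and beta-estradiol at 1 µM for 24 h beforehand. At each level cells were then given IMP1088, which inhibits the N-myristoyltransferases, at 100 nM or the DMSO vehicle, and the sample titles give the time as 24 h. Since both additives came only with medium MYC, what each of them does cannot be told apart from MYC itself, and "medium against high MYC" stands for all of them together.

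Type I interferons bind the receptor pair IFNAR1 and IFNAR2, and the attached kinases JAK1 and TYK2 then phosphorylate STAT proteins, STAT2 among them. STAT2 and IRF9 are parts of the complex ISGF3, which binds the interferon-stimulated response element (ISRE) near the start of its target genes. IRF7 amplifies the loop by switching on interferon genes, and several of the targets are themselves parts of the pathway. B cells keep a low tonic level of this programme without infection, and the enzymes that IMP1088 inhibits add a lipid anchor to the first glycine of many signalling proteins.

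Recovered reads per library ranged from 8755296 to 13858534. MYC itself stood between 29693 and 34376 normalized counts in the high MYC DMSO libraries and between 904.1 and 1022 at medium MYC with DMSO, in the order the labels give. With IMP1088 it stood at 46843 to 48049 and at 1328 to 1444. Of 7 B cell markers, CR2 was listed at 0 in every high MYC library and the other 6 had means of at least 375 in every group. Of markers of other blood cells, NCAM1 and NCR1 (natural killer cells) were listed at 0 throughout. CD3D (T cells), S100A8 and S100A9 (monocytes) stood below 3 in every library. Some other markers on these lists stood higher. At medium MYC with DMSO the means of TRAC and CD3E (T cells) were 132 and 59.6. Those of ITGAM and LYZ (monocytes) were 221 and 49.4, and that of NKG7 (natural killer cells) was 23.2. CLEC4C (plasmacytoid dendritic cells) had a mean of 72.4 at high MYC with DMSO. At high MYC, 5 of the 7 B cell markers were lower with IMP1088 and 0 higher, and their sum was 23822 to 24000 with DMSO and 19245 to 20206 with IMP1088. At medium MYC 4 were lower and 0 higher, with sums of 38838 to 39570 and 34227 to 35464. These calls are at an adjusted p under 0.05. Among all genes tested, 16.3% were called lower and 10.5% higher at high MYC, and 14.6% and 11.7% at medium MYC. The change at high MYC minus that at medium MYC was called negative in 3 of the 7 and positive in 0. For all genes those shares were 5.33% and 3.31%. The sums of 5 T cell markers were 90.5 to 108 with DMSO and 57.2 to 78.8 with IMP1088 at high MYC, and 185 to 243 and 156 to 190.1 at medium MYC. Those of 6 monocyte markers were 118 to 136 and 108 to 119, and 263 to 291 and 250.1 to 276, in the same order. The sums of 4 plasmacytoid dendritic cell markers, nearly all TCF4, were 1483 to 1553 and 1351 to 1460 at high MYC and 1782 to 1865 and 1730 to 1884 at medium MYC. Those of 5 natural killer cell markers stayed below 27 in every library. The part of these markers in the results was not tested.

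The interferon-stimulated genes were lowest in high MYC cells given IMP1088 and highest in medium MYC cells given DMSO. Summed over all 38 members, they made up 0.280% ± 0.005 (SD, n = 4) of all normalized counts at high MYC with DMSO and 0.215% ± 0.003 with IMP1088. At medium MYC the share was 0.555% ± 0.007 with DMSO and 0.510% ± 0.011 with IMP1088. The ranges of the 4 groups did not overlap. In RNA from whole cultures, fewer cells making a transcript and less of it per cell cannot be told apart.

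At high MYC, 31 of the 37 tested members were lower with IMP1088 and 0 higher, at an adjusted p under 0.05 (limma on log2 of the normalized count plus 1, the scale of every log2 value here). Over all 13765 genes tested, 16.3% were called lower and 10.5% higher in this comparison. That split of calls over all genes, 39.1% of them higher, moved to 49.4% higher under quantile normalization, where 30 members were lower and 0 higher. The members' median log2 change was -0.51, against -0.02 over all genes. In 28 of the 37 the 4 IMP1088 libraries did not overlap the 4 DMSO libraries, which was so for 26.7% of all genes.

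At medium MYC, 15 of the 37 were lower and 0 higher, where 14.6% of all genes were called lower and 11.7% higher. The share of calls over all genes that were higher, 44.4%, turned to 54.2% with equal library totals and was 51.1% with quantile normalization, where 1 and 2 members in turn were called higher and 15 lower in each. The median log2 change was -0.16, and the groups were apart in 19 of the 37, against 27.9% of all genes. All 15 had also been called lower at high MYC. The change at high MYC minus the change at medium MYC, tested as an interaction, was called negative for 22 members and positive for 0. Over all genes, 5.33% were called negative and 3.31% positive in that test. The median of this difference over the members was -0.28 on the log2 scale.

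Each response has its own DMSO controls, while the comparisons of MYC level reuse the same libraries. By role, 28 of the 34 tested effectors fell at high MYC and 15 at medium MYC, with median log2 changes of -0.53 and -0.17. Among the 3 regulators, 3 fell at high MYC and 0 at medium MYC, with medians of -0.25 and -0.09. The difference between responses was called negative in 20 effectors and 2 regulators. Among all genes, 16.3% were called lower at high MYC, 14.6% at medium MYC and 5.33% in the difference. The medians over all genes were -0.02 at high MYC and -0.006 at medium MYC.

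**Figure D1:**
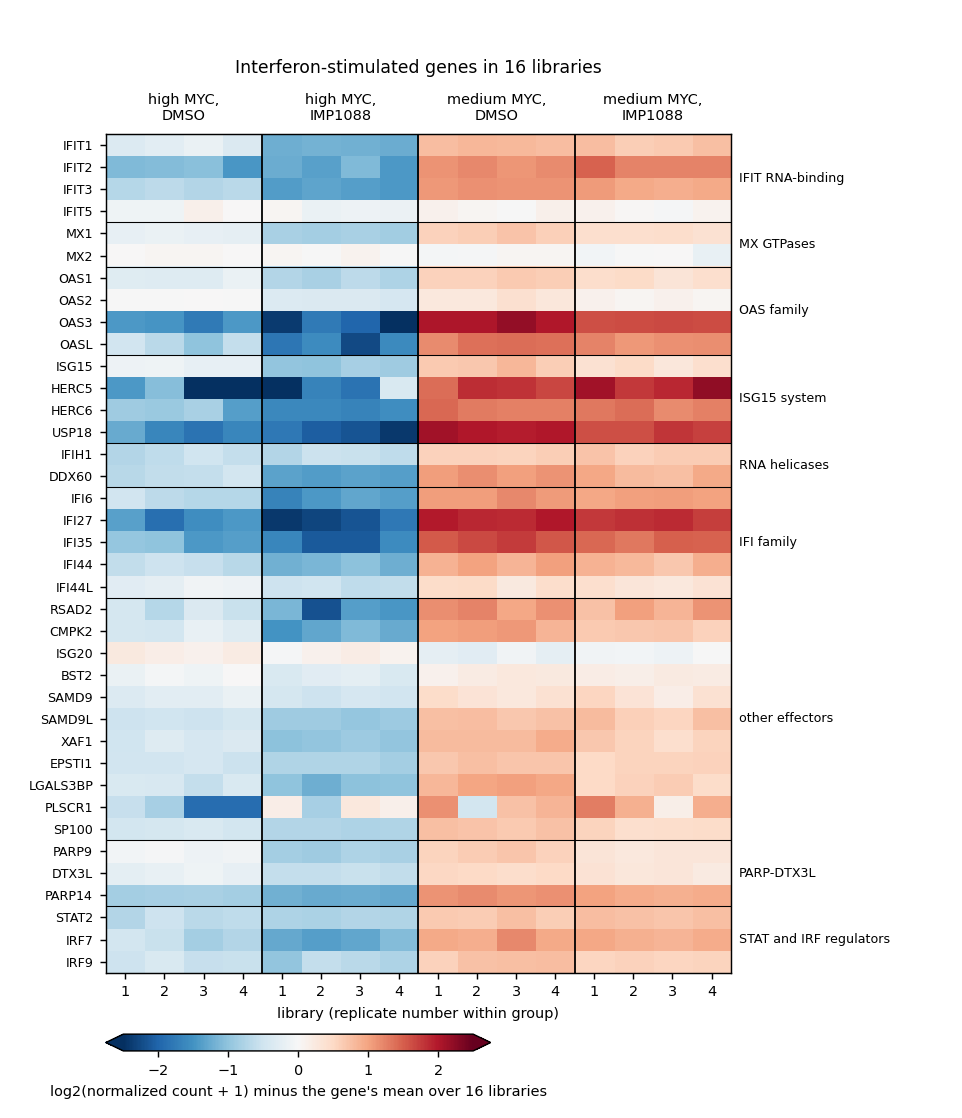
Each row is 1 of the 38 members, grouped by role, and each column 1 of the 16 libraries, and colour gives log2(normalized count + 1) minus the gene's own mean over the libraries, on a scale clipped at both ends. Most rows are bluest at high MYC with IMP1088 and reddest at medium MYC, whereas IFIT5, MX2 and ISG20 change little across the groups.

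To show what the members share in sequence, the RefSeq promoter windows (build GRCh38.p14, from 250 bases before to 50 after each start site) were searched for the core of the ISRE, written GAAANNGAAA, on both strands. A window was found for 32 of the 38 members; IFIT2, MX2, OAS2, OASL, USP18 and IRF7 had none. The core was present in 23 of the 32 members, or 71.9%, and in 4.38% of the 27305 genes with a window. All 23 were effectors, of 30 with a window, and neither STAT2 nor IRF9 held it. With gaps of 1 to 3 bases between the repeats, 27 of the 32 (84.4%) and 10.5% of all genes matched. The core of the gamma-activated sequence, TTCNNNGAA, stood in 10 of the 32 (31.3%) and in 9.38% of all genes. A match is a stretch of letters and not a measured binding site.

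The 250 bases before the start site are printed here for the 5 members with the smallest p for the difference in response that had a window, then for STAT2 and IRF9, which lack the ISRE core. IFIT5 was added after its values were seen, because it holds the core but was not called in either response. Capitals mark the core on either strand. MX1 has 3 windows and IFIT3 and PARP9 have 2 each, and the one printed has the most copies of the core before the start site, or is the first of equals. Of the other MX1 windows, 1 holds the core after its start site and 1 holds none, the other IFIT3 window holds 2 copies, and the other PARP9 window holds none. The stretches, each 5′ to 3′ on the gene's own strand, are IFIT1 at chr10:89392373-89392622 (plus), MX1 at chr21:41431800-41432049 (plus), IFIT3 at chr10:89327747-89327996 (plus), PARP9 at chr3:122564301-122564550 (minus), IFI6 at chr1:27672193-27672442 (minus), STAT2 at chr12:56360108-56360357 (minus), IRF9 at chr14:24161015-24161264 (plus) and IFIT5 at chr10:89414318-89414567 (plus).
IFIT1: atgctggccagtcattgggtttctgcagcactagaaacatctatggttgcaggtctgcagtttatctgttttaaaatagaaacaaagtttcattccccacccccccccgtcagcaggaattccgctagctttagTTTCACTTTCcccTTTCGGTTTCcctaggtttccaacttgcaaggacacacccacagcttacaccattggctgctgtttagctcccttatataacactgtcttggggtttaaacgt
MX1: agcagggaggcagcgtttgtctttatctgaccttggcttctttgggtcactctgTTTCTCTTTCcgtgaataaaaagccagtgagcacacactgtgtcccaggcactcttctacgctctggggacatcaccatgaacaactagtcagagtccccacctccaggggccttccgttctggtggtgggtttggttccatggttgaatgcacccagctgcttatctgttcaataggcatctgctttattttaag
IFIT3: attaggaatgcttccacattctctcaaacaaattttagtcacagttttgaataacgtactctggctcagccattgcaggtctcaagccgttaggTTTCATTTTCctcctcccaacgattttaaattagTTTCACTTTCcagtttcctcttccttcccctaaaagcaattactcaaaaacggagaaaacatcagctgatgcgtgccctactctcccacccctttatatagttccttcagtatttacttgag
PARP9: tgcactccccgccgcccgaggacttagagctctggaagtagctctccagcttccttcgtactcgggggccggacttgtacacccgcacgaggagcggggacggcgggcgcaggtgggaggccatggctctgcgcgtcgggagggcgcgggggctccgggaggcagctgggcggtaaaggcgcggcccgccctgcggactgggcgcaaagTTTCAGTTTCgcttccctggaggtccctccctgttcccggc
IFI6: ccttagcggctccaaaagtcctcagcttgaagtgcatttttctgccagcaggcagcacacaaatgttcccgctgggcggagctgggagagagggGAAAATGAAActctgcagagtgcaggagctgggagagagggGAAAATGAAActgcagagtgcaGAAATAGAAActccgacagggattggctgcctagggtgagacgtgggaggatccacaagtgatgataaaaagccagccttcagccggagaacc
STAT2: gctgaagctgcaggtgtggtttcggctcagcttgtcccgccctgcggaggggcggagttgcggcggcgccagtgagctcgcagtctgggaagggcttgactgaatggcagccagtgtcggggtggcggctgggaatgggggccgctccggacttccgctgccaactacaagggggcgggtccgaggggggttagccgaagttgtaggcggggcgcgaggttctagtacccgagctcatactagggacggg
IRF9: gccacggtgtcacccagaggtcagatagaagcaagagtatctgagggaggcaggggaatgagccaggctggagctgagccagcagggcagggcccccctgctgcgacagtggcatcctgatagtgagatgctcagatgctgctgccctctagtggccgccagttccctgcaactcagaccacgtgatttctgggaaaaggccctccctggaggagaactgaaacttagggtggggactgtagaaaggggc
IFIT5: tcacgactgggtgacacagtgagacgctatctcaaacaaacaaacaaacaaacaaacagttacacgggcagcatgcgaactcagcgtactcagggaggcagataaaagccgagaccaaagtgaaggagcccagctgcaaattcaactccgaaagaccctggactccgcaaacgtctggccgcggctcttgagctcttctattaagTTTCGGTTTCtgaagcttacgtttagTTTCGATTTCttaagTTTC

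IFIT1 holds 2 copies of the core, starting 116 and 103 bases before the start site, and IFI6 holds 3. In IFIT5 the last capitals begin one more copy, which runs on past the printed stretch. The single core of PARP9, at chr3:122564332-122564341, is the same 10 bases that the DTX3L window holds on the other strand, since these genes are divergent. Of 22 tested members with the core, 18 fell at high MYC and 10 at medium MYC, and of 9 tested members without it, 9 fell at high MYC and 4 at medium MYC. No test was made of that split. Among the 13765 genes tested, 16.3% fell at high MYC and 14.6% did so at medium MYC.

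Upstream of the members, transcripts of the interferons themselves were close to the detection limit. Of 17 type I interferon genes, 0 passed the filter, and IFNA2 reached the highest value, 11.1 in a medium MYC library with IMP1088. IFNB1, the interferon that fibroblasts and many other cells make first, was listed at 0 in every high MYC library and reached 5.22 at medium MYC with DMSO. None of IFNG, IFNL1, IFNL2 and IFNL3 passed the filter. These libraries therefore give no measurable comparison of the ligands.

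IFNAR1, the chain that binds TYK2, stood at 481, 512, 534 and 535 with DMSO and at 523, 569, 524 and 537 with IMP1088 at high MYC. Its values at medium MYC were 536, 600.1, 562 and 547 with DMSO and 680.4, 609.9, 640.2 and 591 with IMP1088. The groups overlapped at both levels, although IFNAR1 was called higher at medium MYC (log2 change 0.17, SE 0.05, adjusted p = 0.021). IFNAR2, the chain that binds JAK1, stood at 189 to 210.1 with DMSO and 172 to 197 with IMP1088 at high MYC, and at 314 to 377 with DMSO and 263 to 317 with IMP1088 at medium MYC. Its groups overlapped too, with log2 changes of -0.07 (adjusted p = 0.55) and -0.20 (adjusted p = 0.047).

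Of 6 interferon receptor chains, 2 fell at high MYC, and 3 fell and 1 rose at medium MYC. The shares over all genes were 16.3% lower at high MYC, and 14.6% lower and 11.7% higher at medium MYC. The 1 receptor called in the difference was IFNLR1, the specific chain for interferon lambda. It stood at 292, 304, 276 and 295 with DMSO and 237, 234, 221 and 226 with IMP1088 at high MYC, where its groups were apart. The medium MYC values were 152, 152, 175 and 140.3 with DMSO and 156, 163, 166 and 148 with IMP1088, which overlapped. The difference in response was -0.38 (SE 0.10, adjusted p = 0.017). IFNLR1 was also the receptor that stood lower at medium than at high MYC, while the other five stood higher.

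JAK1 stood at 1286 to 1375 with DMSO at high MYC and 8315 to 8650.3 at medium MYC, a log2 difference of 2.67 (SE 0.03, adjusted p = 2.5e-25). Its inhibitor responses were -0.06 (adjusted p = 0.10) at high and -0.07 (adjusted p = 0.0701) at medium MYC, and neither was called. TYK2 stood at 955, 943, 873 and 885 with DMSO and 821, 831, 794 and 846 with IMP1088 at high MYC, without overlap, and fell with a log2 change of -0.15 (adjusted p = 0.0041). At medium MYC TYK2 values overlapped, 2902 to 3162 against 2827 to 3005.

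STAT5B, which carries signals from cytokines and growth hormone, had the larger fall at medium MYC. It stood at 722, 748, 711 and 671 with DMSO and 598, 587, 612 and 635 with IMP1088 at high MYC and at 1794, 1679, 1741 and 1732 with DMSO and 1124, 1083, 1123 and 980.1 with IMP1088 at medium MYC. It fell at both levels, without overlap, by log2 -0.69 at medium and -0.23 at high MYC (difference 0.46, adjusted p = 4.5e-05). Of the 8 tested JAK and STAT genes outside the members, 4 fell at high MYC and 4 at medium MYC, and 0 rose at either. The difference in response was called positive in 1 of the 8, STAT5B, and negative in 1. For comparison, 16.3% of all genes fell and 10.5% rose at high MYC, while 14.6% fell and 11.7% rose at medium MYC. In the difference, 3.31% of all genes were positive and 5.33% negative.

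STAT2, the member of ISGF3 that supplies its main activating domain, lies at chr12:56341597-56360155, minus strand. It stood at 688, 791, 712 and 738 with DMSO and at 671, 656, 689 and 677 with IMP1088 at high MYC. At medium MYC it stood at 1787, 1774, 1909 and 1743 with DMSO and 1944, 1891, 1842 and 1912 with IMP1088. The treated and control libraries overlapped at both levels, by a single library at high MYC. The log2 change was -0.12 (SE 0.04, adjusted p = 0.034) at high MYC and 0.07 (adjusted p = 0.20) at medium MYC. The difference was -0.19 (adjusted p = 0.039). The response at high MYC was lost in 14 of 29 alternative fits (adjusted p 0.0552 to 0.151 there) and the difference in 16 of 28 (0.0561 to 0.0873). At high MYC these include the fits without DMSO replicate 2 (0.148) or 4 (0.0702) and without IMP1088 replicate 1 (0.067), 2 (0.0934) or 4 (0.0552).

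IRF7, the master regulator of interferon alpha genes, lies at chr11:612553-615999, minus strand. At high MYC it stood at 405, 378, 309 and 333 with DMSO and 229, 214, 227 and 262 with IMP1088. At medium MYC the values were 1078, 1042, 1289 and 1072 with DMSO and 1086, 1036, 1007 and 1057 with IMP1088. All IMP1088 libraries lay below all DMSO libraries at high MYC, and the groups overlapped at medium MYC. IRF7 fell 1.52-fold at high MYC (log2 -0.61, SE 0.08, adjusted p = 4.5e-06), with a log2 change of -0.09 (adjusted p = 0.42) at medium MYC. These differed by -0.51 (SE 0.11, adjusted p = 0.0041).

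IRF9, the DNA-binding part of ISGF3, lies at chr14:24161053-24166565, plus strand, and its exons overlap AL136295.5 on the same strand. Whether the counting used strand is not given in the sources used here, so reads of genes whose exons overlap may not be told apart. It stood at 358, 395, 348 and 351 with DMSO and 260.2, 341, 325 and 301 with IMP1088 at high MYC. At the medium level there were 774, 855, 874 and 887 with DMSO and 747, 769, 749 and 762 with IMP1088. The groups were apart at both levels. The log2 change was -0.25 (SE 0.07, adjusted p = 0.0081) at high MYC and -0.16 (SE 0.07, adjusted p = 0.081) at medium MYC, with a difference of -0.09 (adjusted p = 0.67). The call at high MYC was lost when only the 2 compared groups were fitted (adjusted p = 0.0546). A fall at medium MYC was called in 5 of 29 alternative fits (0.0171 to 0.0398), among them edgeR (0.0398) and DESeq2 (0.0371) and the fits without high MYC IMP1088 replicate 1 (0.0304) or medium MYC DMSO replicate 1 (0.0372).

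Of 6 other IRF genes tested, 3 rose and 2 fell at high MYC, and 2 rose and 1 fell at medium MYC. The shares over all genes were 10.5% higher and 16.3% lower at high MYC, and 11.7% and 14.6% at medium MYC. IRF4 and IRF8, named after their values were seen, stood higher with IMP1088 at both levels, without overlap. IRF1, an early interferon target that can act without ISGF3, stood at 967, 1001, 975 and 931 with DMSO and 1138, 1090.3, 1126 and 1126 with IMP1088 at high MYC, without overlap. The medium MYC values were 1824, 1901, 1875 and 1793 with DMSO and 1732, 1676, 1763 and 1746 with IMP1088, again without overlap but in the opposite direction. The log2 change was 0.21 (adjusted p = 3.9e-05) at high MYC and -0.10 (adjusted p = 0.031) at medium MYC. The difference, 0.31 (SE 0.05, adjusted p = 1.0e-04), was positive, where those of STAT2 and IRF7 were negative.

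**Figure D2:**
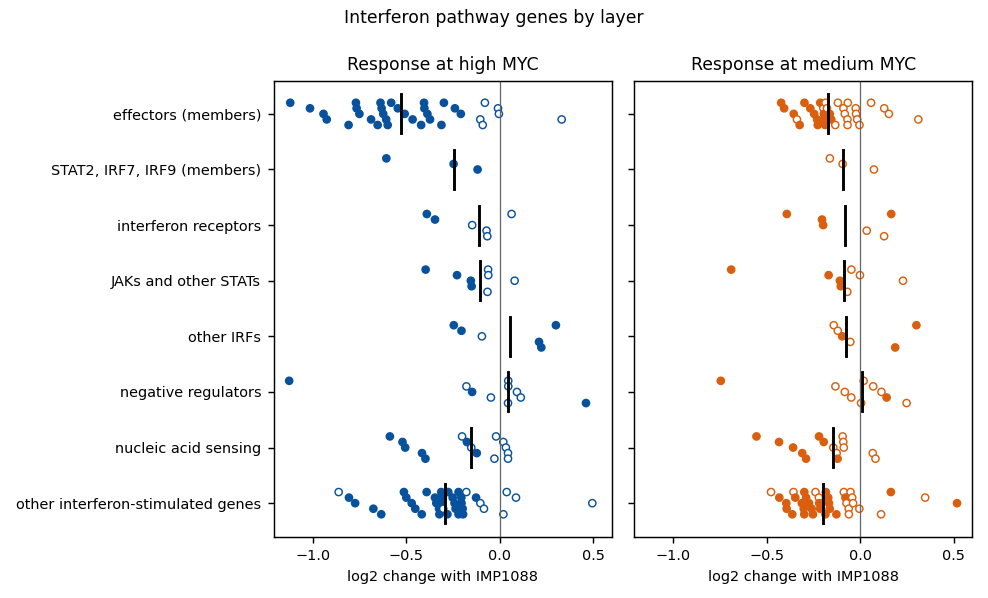
Dots are genes placed by their log2 change with IMP1088 at high MYC (left) and medium MYC (right), filled where the adjusted p was under 0.05, in rows by layer of the interferon pathway; black bars are medians. The effector row has its median at -0.53 at high MYC and -0.17 at medium MYC, and the receptor, kinase and other IRF rows have medians between -0.11 and 0.06.

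Among the effectors, the IFIT proteins bind viral RNA through their tetratricopeptide repeats. IFIT1, IFIT2, IFIT3 and IFIT5 lie together on chromosome 10. IFIT1, which recognises RNA lacking a host-type cap, lies at chr10:89392546-89406486, plus strand, and had the smallest p of all members for the difference in response. At high MYC it stood at 412, 436, 465 and 410.2 with DMSO and at 224, 229.6, 228 and 222 with IMP1088. Its values at medium MYC were 889, 935, 915 and 889.6 with DMSO and 892, 805, 829 and 887 with IMP1088. The groups were apart at high MYC and overlapped at medium MYC. IFIT1 fell 1.90-fold at high MYC (log2 -0.93, SE 0.05, adjusted p = 6.7e-12), while the change at medium MYC was -0.09 (adjusted p = 0.19). The responses differed by -0.84 (SE 0.07, adjusted p = 2.6e-08).

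IFIT3, which stabilises IFIT1 in a joint complex, lies at chr10:89327894-89340971, plus strand. High MYC cells had 554, 572, 541 and 564 with DMSO and 341, 362, 347 and 333 with IMP1088. Medium MYC cells had 1922, 1996, 1957 and 1969.5 with DMSO and 1889.7, 1734, 1694 and 1737 with IMP1088. IFIT3 was lower with the inhibitor at both levels without overlap, by log2 -0.69 (adjusted p = 2.8e-11) and -0.15 (adjusted p = 0.0047). The difference was -0.53 (adjusted p = 9.1e-07).

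The other two genes of the cluster were not called in either response. IFIT2 had log2 changes of -0.10 (adjusted p = 0.41) and 0.15 (adjusted p = 0.20), although at medium MYC its IMP1088 values, 701 to 828, all lay above those with DMSO, 641 to 682. Its exons overlap AL353751.1 on the same strand and LIPA on the other. IFIT5, which binds RNA with a 5′ phosphate, stood at 430.1 to 508 with DMSO and 410.4 to 477 with IMP1088 at high MYC, with a log2 change of -0.08 (adjusted p = 0.36). Its window holds 3 copies of the ISRE core, as printed above.

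MX1, a dynamin-like GTPase that blocks influenza and other viruses, lies at chr21:41420304-41459214, plus strand. It stood at 4199, 4281, 4192 and 4135 with DMSO and 2758, 2679, 2755 and 2649 with IMP1088 at high MYC. At the medium level there were 7247, 7407, 7946 and 7267 with DMSO and 6437, 6447, 6536 and 6326 with IMP1088. The IMP1088 values were below all DMSO values at both levels, with log2 changes of -0.63 (SE 0.03, adjusted p = 1.1e-12) and -0.21 (SE 0.03, adjusted p = 7.5e-06). The responses differed by -0.42 (adjusted p = 4.0e-07). MX2, its neighbour on chromosome 21, acts at the nuclear pore against HIV. Its values were 1613 to 1665 with DMSO and 1583 to 1708 with IMP1088 at high MYC, and 1556 to 1658 with DMSO and 1414 to 1606 with IMP1088 at medium MYC, with overlap between treated and control libraries at both levels.

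**Figure D3:**
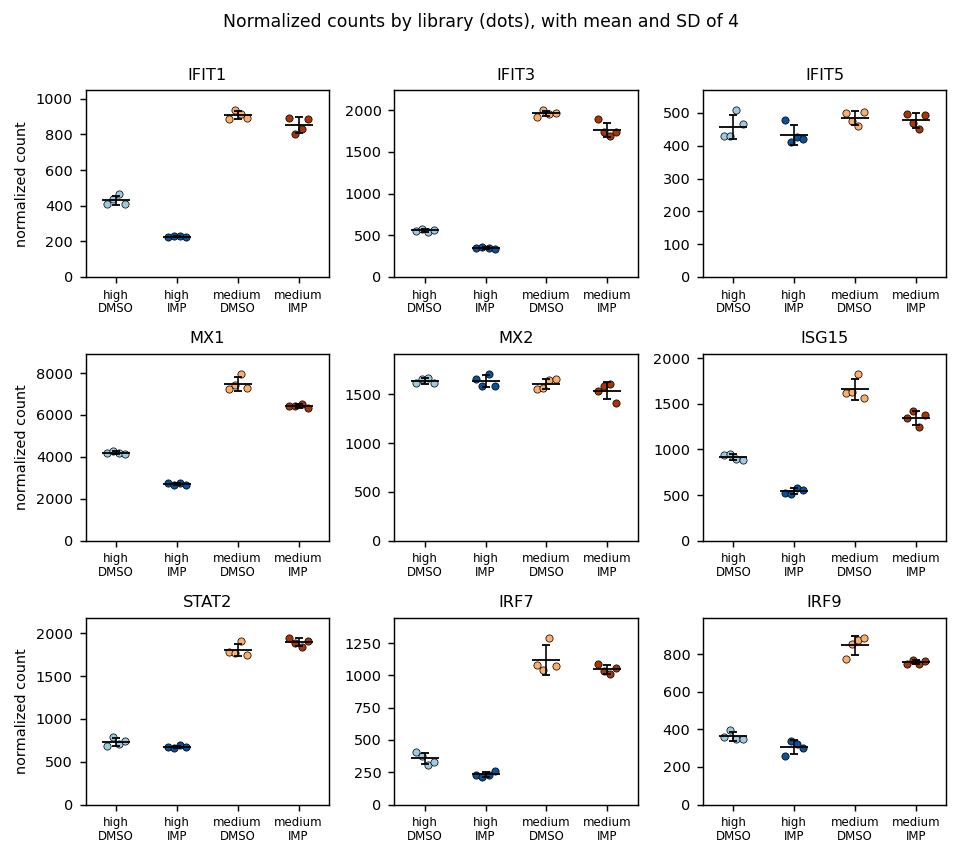
Normalized counts (vertical axes, from 0) of 9 genes in each library, as dots coloured by group, with the mean and SD of 4 libraries in black. IFIT1, IFIT3, MX1, ISG15 and IRF7 step down with IMP1088 (IMP) at high MYC without overlap, while the treated and control libraries of IFIT5 and MX2 overlap at both levels.

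The OAS enzymes make short 2′-5′-linked adenylate chains that activate RNase L. OAS1, OAS2 and OAS3 lie side by side on chromosome 12, and all fell at both levels. The log2 changes at high MYC were -0.47 for OAS1, -0.37 for OAS2 and -0.64 for OAS3, and at medium MYC -0.19, -0.23 and -0.42 in that order. The largest adjusted p among these was 0.00801, for OAS3 at medium MYC. The difference between levels was called for OAS1 (adjusted p = 0.0079) and OAS2 (adjusted p = 0.031), and was lost for OAS2 in 11 of 28 alternative fits (0.0502 to 0.0864), 9 of which leave out 1 library.

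OAS3, the long form, lies at chr12:112938352-112973249, plus strand. Its values were 105, 103, 83.9 and 105 with DMSO and 53.8, 83.2, 71.6 and 49.9 with IMP1088 at high MYC. At medium MYC they were 1168, 1162, 1319.7 and 1155 with DMSO and 885, 888, 909.7 and 895 with IMP1088. The groups were apart at both levels, and the difference in response was -0.22 (adjusted p = 0.49). OASL, a relative without synthase activity that aids the RNA sensor RIG-I, lies at chr12:121019111-121039242, minus strand, on the same chromosome. It stood at 53.5, 46.0, 36.4 and 49.2 with DMSO and 20.4, 24.4, 14.8 and 23.9 with IMP1088 at high MYC, the deepest fall of the members on the log2 scale (-1.12, SE 0.14, adjusted p = 3.5e-06). At medium MYC it stood at 171, 196, 199 and 194 with DMSO and 178, 159, 165 and 168 with IMP1088, which overlapped. Its difference in response was -0.94 (SE 0.20, adjusted p = 0.0037).

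ISG15 is a ubiquitin-like protein that is joined to newly made proteins during infection. It lies at chr1:1001138-1014540, plus strand, and its exons overlap AL645608.3 on the other strand. At high MYC it stood at 944, 952, 894 and 887 with DMSO and 518, 511, 579 and 553 with IMP1088. The medium MYC values were 1616, 1625, 1823 and 1563 with DMSO and 1341, 1424, 1245 and 1377 with IMP1088. It fell at both levels without overlap, 1.70-fold at high MYC and 1.23-fold at medium MYC (adjusted p = 4.3e-10 and 1.4e-04). The difference was -0.47 (SE 0.07, adjusted p = 1.7e-04).

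USP18, the protease that removes ISG15 and restrains the receptor, lies at chr22:18149899-18177397, plus strand. It stood at 21.8, 16.8, 14.3 and 16.8 with DMSO and 15.1, 12.2, 11.3 and 9.36 with IMP1088 at high MYC, with overlap. The medium MYC values were 236, 218, 214 and 219 with DMSO and 168, 167, 188 and 178 with IMP1088, without overlap. The log2 changes were -0.51 (adjusted p = 0.011) and -0.34 (adjusted p = 0.089), and the difference was -0.17 (adjusted p = 0.70). edgeR and DESeq2 on the recovered reads turned these calls around, with adjusted p of 0.0922 and 0.133 at high MYC and 0.0033 and 0.0109 at medium MYC. HERC6 fell at high MYC (log2 -0.61, SE 0.10, adjusted p = 1.4e-04), and the difference was called (-0.58, adjusted p = 0.013). HERC5, the main ISG15 ligase of human cells, stood at 1.51, 2.25, 0 and 0 with DMSO and 0, 1.11, 0.87 and 4.16 with IMP1088 at high MYC, at or near the limit of 3 reads, so no inhibitor effect could be read there.

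Of the RNA helicases, DDX60, a cofactor of RNA sensing, lies at chr4:168216293-168318807, minus strand. It stood at 232, 247, 248 and 275 with DMSO and 148, 142, 149 and 146 with IMP1088 at high MYC. Medium MYC cells had 784, 843, 772 and 826 with DMSO and 735, 651, 635 and 733 with IMP1088. It was lower with the inhibitor at both levels without overlap, by log2 -0.77 and -0.23 (adjusted p = 3.7e-09 and 0.0063), and these differed by -0.54 (adjusted p = 1.8e-04). IFIH1, which encodes the sensor MDA5, was not called at either level (log2 -0.01, adjusted p = 0.92, and 0.06, adjusted p = 0.43). Its window holds 3 matches to the ISRE core.

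All 5 genes of the IFI group fell at high MYC and 0 were called at medium MYC. IFI6, a small membrane protein that opposes cell death and flavivirus replication, lies at chr1:27666061-27672218, minus strand. It stood at 274, 244, 234 and 232 with DMSO and 119, 141, 154 and 147 with IMP1088 at high MYC. At medium MYC it stood at 798, 790.2, 885 and 803 with DMSO and 749, 783, 791 and 769 with IMP1088. IFI6 was apart at high MYC and overlapped at medium MYC, with log2 changes of -0.81 (adjusted p = 1.6e-08) and -0.08 (adjusted p = 0.43). The difference was -0.73 (SE 0.10, adjusted p = 3.4e-05).

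IFI44 and IFI44L are sequence relatives that lie next to each other on chromosome 1, at chr1:78649796-78664078, plus strand, and chr1:78619922-78646145, plus strand. IFI44 stood at 265, 284, 272 and 249 with DMSO and 175, 183, 199 and 175 with IMP1088 at high MYC, and at 732 to 825 with DMSO and 649.6 to 761 with IMP1088 at medium MYC. IFI44L stood at 3065, 3209, 3503 and 3432 with DMSO and 2622, 2629.9, 2403 and 2436 with IMP1088 at high MYC, and at 4441 to 5174 with DMSO and 4490.1 to 5004 with IMP1088 at medium MYC. Both were apart at high MYC and overlapped at medium MYC. The differences in response were -0.43 (adjusted p = 0.0029) for IFI44 and -0.32 (adjusted p = 0.0054) for IFI44L.

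IFI27, a mitochondrial and nuclear-envelope protein, lies at chr14:94104836-94116698, plus strand, and IFI35, which damps RIG-I signalling, at chr17:43006725-43014456, plus strand. IFI27 stood at 52.0, 35.9, 45.3 and 49.2 with DMSO and 24.7, 26.6, 29.7 and 38.5 with IMP1088 at high MYC, overlapping by 1 library. Its medium MYC values, 536, 499.98, 498 and 542 with DMSO and 465, 481, 499 and 449 with IMP1088, also overlapped. IFI35 stood at 45.2, 43.8, 32.0 and 33.5 with DMSO and 28.0, 20.0, 20.1 and 29.1 with IMP1088 at high MYC and at 258, 279.95, 299 and 261 with DMSO and 241, 224, 252 and 248 with IMP1088 at medium MYC, without overlap at either level. The log2 changes at high MYC were -0.60 (adjusted p = 6.2e-04) and -0.65 (adjusted p = 9.3e-04). Neither difference in response was called, with values of -0.47 (adjusted p = 0.095) and -0.47 (adjusted p = 0.15). That of IFI27 was called in 2 of 28 alternative fits (adjusted p 0.0132 to 0.0238), each leaving out 1 library.

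PARP9 and DTX3L form an ADP-ribosyl transferase and ubiquitin ligase pair, and PARP14 is a related enzyme close by on chromosome 3. PARP9 lies at chr3:122527924-122564577, minus strand, and its exons overlap those of DTX3L on the other strand. It stood at 869, 894, 839.9 and 858 with DMSO and 509.7, 492, 534 and 519 with IMP1088 at high MYC. The medium MYC values were 1340.4, 1423, 1479.9 and 1366 with DMSO and 1136, 1095, 1127 and 1121 with IMP1088. PARP14, at chr3:122680618-122730840, plus strand, stood at 1814, 1846, 1856 and 1825 with DMSO and 1431, 1375, 1386 and 1350.3 with IMP1088 at high MYC, and at 7134, 7442, 7004 and 7222 with DMSO and 6615, 6237, 6063 and 6271 with IMP1088 at medium MYC. Both were lower with the inhibitor without overlap at each level. PARP9 fell by log2 -0.75 and -0.32 and PARP14 by -0.41 and -0.19, at high and medium MYC in turn. The differences were -0.43 (adjusted p = 1.3e-05) and -0.21 (adjusted p = 0.00201). DTX3L also fell at both levels, with log2 changes of -0.40 and -0.19 and a difference of -0.21 (adjusted p = 0.0069).

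SAMD9L, which restrains cell growth and viral protein synthesis, lies at chr7:93130055-93148369, minus strand, beside its relative SAMD9. It stood at 1144, 1147, 1135 and 1207 with DMSO and 879.7, 881, 833 and 865 with IMP1088 at high MYC. At the medium level there were 2758, 2767, 2613 and 2724 with DMSO and 2825, 2466, 2354 and 2747 with IMP1088. The groups were apart at high MYC and overlapped at medium MYC, with a difference in response of -0.35 (SE 0.06, adjusted p = 9.0e-04). SAMD9 also fell at high MYC (log2 -0.21, SE 0.06, adjusted p = 0.0098), and its difference was not called (-0.21, adjusted p = 0.14).

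The remaining tested effectors fell at high MYC, except ISG20. RSAD2 (viperin, which makes a chain-ending nucleotide) and its divergent neighbour CMPK2, a nucleotide kinase, had log2 changes of -1.02 (SE 0.16) and -0.94 (SE 0.10). Their exons overlap on opposite strands. BST2 (tetherin, which holds budding viruses at the cell surface) changed by -0.24, XAF1 (which opposes the death inhibitor XIAP) by -0.58, and LGALS3BP (a secreted glycoprotein) by -0.62. EPSTI1 and SP100, a protein of nuclear bodies, changed by -0.30 and -0.31. Their largest adjusted p at high MYC was 3.2e-04, for BST2. At medium MYC CMPK2, XAF1, LGALS3BP, EPSTI1 and SP100 were lower too, with log2 changes from -0.41 to -0.16. The difference in response was -0.22 for BST2, a call lost in 9 of 28 alternative fits (adjusted p 0.0507 to 0.0672), 7 of which leave out 1 library. For RSAD2 it was -0.82, lost in 2 of 28 (0.0566 to 0.0589). ISG20, an exonuclease, had log2 changes of -0.09 (adjusted p = 0.18) and 0.13 (adjusted p = 0.056). The increase at medium MYC was called in 7 of 29 alternative fits (adjusted p 0.0145 to 0.044 there).

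**Figure D4:**
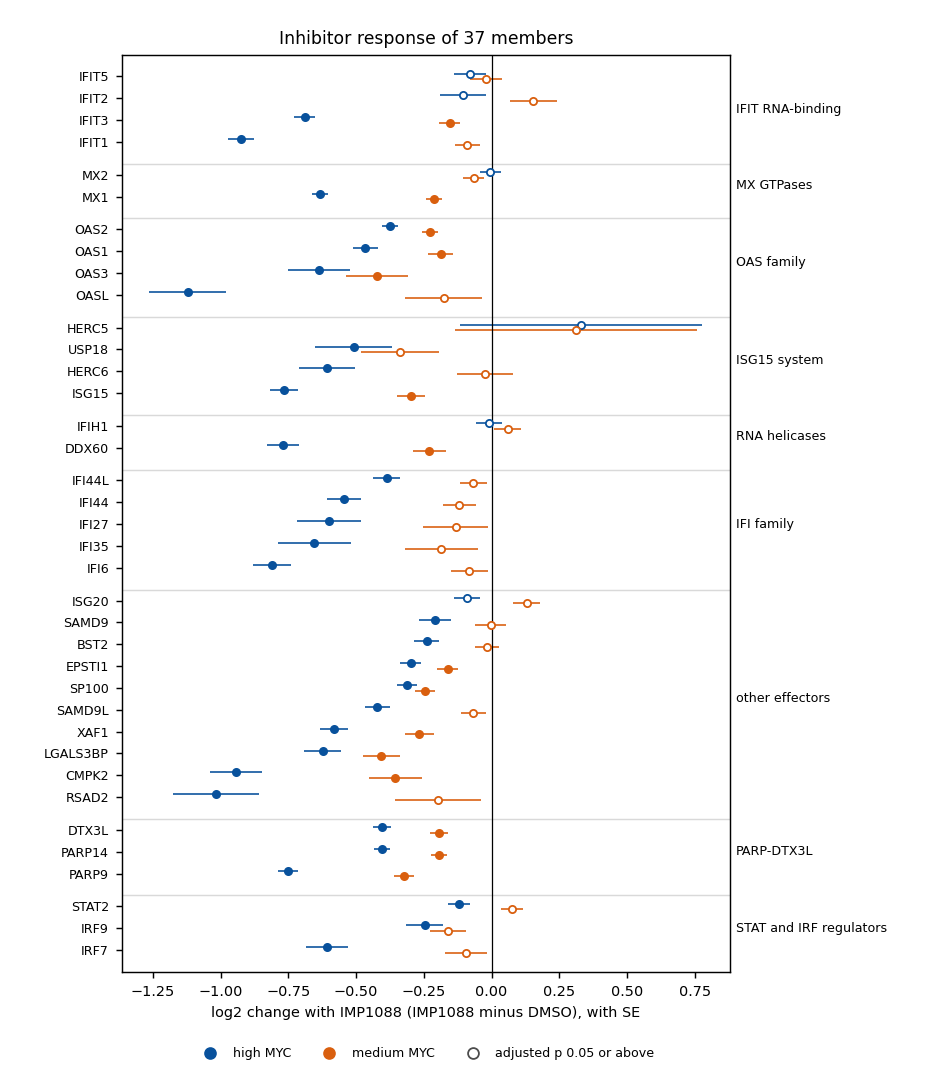
Log2 change with IMP1088 (horizontal axis, with SE) of the 37 tested members at high MYC (blue) and medium MYC (orange), by role; open dots had an adjusted p of 0.05 or above. Most blue dots lie to the left of the orange dot of the same gene, from OASL at -1.12 to IFIH1 and MX2 near 0, and the HERC5 dots rest on few reads.

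Neighbouring members were also compared with each other. For 11 pairs of members within 100000 bases of each other, the log2 ratio of the pair was compared between IMP1088 and DMSO libraries with a two-sided exact permutation test, at each MYC level. This set of 22 tests was added after the values had been seen. At high MYC the IFIT1 to IFIT5 ratio changed by -0.85 and the MX2 to MX1 ratio by 0.63. The IFIT2 to IFIT3 ratio changed by 0.58, the IFIT3 to IFIT1 ratio by 0.24, the PARP9 to DTX3L ratio by -0.35 and the SAMD9 to SAMD9L ratio by 0.21. Each of these gave p = 0.0286, the smallest that 4 against 4 libraries allow in an exact test, and 0.0698 after Benjamini-Hochberg adjustment over the 22. At medium MYC the same p was reached by the IFIT2 to IFIT3 ratio (0.31), the OAS1 to OAS3 ratio (0.24) and the OAS3 to OAS2 ratio (-0.20). None of the 22 was below 0.05 after adjustment.

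Medium MYC cells had higher normalized counts of nearly every member than high MYC cells. Such counts are scaled between libraries, so the amount of RNA per cell was not measured. With DMSO, 34 of the 37 tested were higher and 1 lower at medium MYC, in a comparison where 38.9% of all genes were called higher and 37.3% lower. The median log2 difference was 1.23, against 0.02 over all genes, and 35 of the 37 were apart, as were 69.2% of all genes. With IMP1088, 35 were higher and 2 lower, where 39.7% of all genes were called higher and 37.8% lower. There the median was 1.58, and 34 of the 37 were apart, against 72.6% of all genes. The DMSO and IMP1088 comparisons use separate libraries at both levels. HERC5, counted as higher in both, passed the filter only through its medium MYC libraries, so its direction there was tied to the filter.

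Of the 34 tested effectors, 31 were higher at medium MYC with DMSO, with a median log2 difference of 1.23, and all 3 regulators were higher, with a median of 1.30. IRF7 was 3.14-fold higher, STAT2 2.46-fold and IRF9 2.33-fold, each without overlap (largest adjusted p = 2.7e-13). Among all genes in this comparison, 38.9% were called higher and 69.2% were apart.

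The largest differences, outside HERC5, were in USP18, OAS3, IFI27 and IFI35. Their values are given above, and with DMSO the log2 differences between medium and high MYC were 3.61, 3.59, 3.49 and 2.81 in that order. With IMP1088 the log2 differences of the same genes were 3.78, 3.80, 3.96 and 3.28. HERC5 stood at 16.7, 23.1, 22.8 and 20.5 at medium MYC with DMSO. Against 3 reads in each high MYC library, HERC5 was at least 6.76-fold higher, and the members' median was 1.23 also with HERC5 at that bound. Smaller differences with DMSO were those of PARP14 (log2 1.97), IFIT3 (1.81), ISG15 (0.85) and MX1 (0.83).

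IFIT5, MX2 and ISG20 stood apart from the rest in that they were not higher at medium MYC with DMSO. The log2 difference was 0.08 (adjusted p = 0.22) for IFIT5 and -0.03 (adjusted p = 0.50) for MX2, and their libraries overlapped. ISG20 was lower at medium MYC, at 605 to 687 against 790.2 to 871 (log2 -0.38, SE 0.05, adjusted p = 3.2e-07). With IMP1088 both MX2 (-0.09, adjusted p = 0.041) and ISG20 (-0.16, adjusted p = 0.0045) were called lower and IFIT5 higher (0.14, adjusted p = 0.039). The MX2 call was lost in 8 of 28 alternative fits (adjusted p 0.0516 to 0.212), 4 of which leave out 1 library, and the IFIT5 call in 10 of the 28 (0.0505 to 0.116), 6 of which do.

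**Figure D5:**
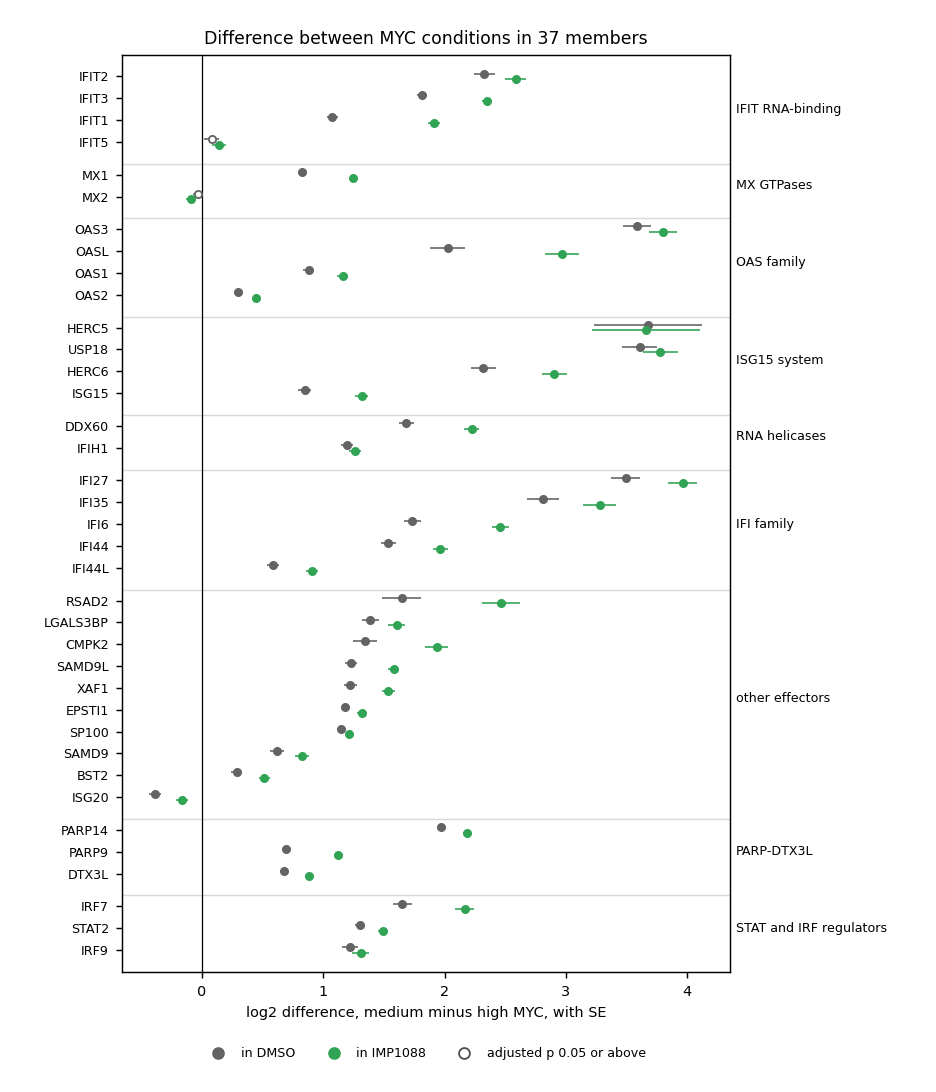
Log2 difference between medium and high MYC (horizontal axis, with SE) of the 37 tested members among DMSO libraries (grey) and IMP1088 libraries (green), by role; open dots had an adjusted p of 0.05 or above. Nearly all dots lie right of 0, up to 3.96 for IFI27 with IMP1088 (the HERC5 dots are no bound, as high MYC libraries held at most 4 reads), and IFIT5, MX2 and ISG20 lie close to 0 or left of it.

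A further list of 41 interferon-stimulated genes outside the members was measured for comparison. Of its 38 tested genes, 29 fell and 0 rose with IMP1088 at high MYC, with a median log2 change of -0.29. At medium MYC 22 fell and 2 rose, with a median of -0.20. Among all genes, 16.3% fell and 10.5% rose at high MYC, and 14.6% and 11.7% at medium MYC. The difference in response was called negative in 7 and positive in 1, against 5.33% and 3.31% of all genes. HELZ2, a helicase coactivator, stood at 674, 685, 598 and 599 with DMSO and 382, 360.5, 355 and 394 with IMP1088 at high MYC and at 1406, 1528, 1715 and 1439 with DMSO and 1244, 1352, 1215 and 1291 with IMP1088 at medium MYC, apart at both levels. Its difference was -0.52 (adjusted p = 2.6e-04). IFITM2, which hinders virus entry from endosomes, stood at 448 to 529 with DMSO and 287 to 322 with IMP1088 at high MYC, without overlap (difference in response -0.45, adjusted p = 0.0015). TRIM14, an adaptor of RNA sensing, was the positive gene, since its fall was called only at medium MYC (1143 to 1274 with DMSO and 873 to 941 with IMP1088, difference 0.31, adjusted p = 0.0016). Of the 38, 28 were higher and 7 lower at medium MYC with DMSO, with a median log2 difference of 0.49. In that comparison 38.9% of all genes were called higher and 37.3% lower. LAMP3, CXCL10 and RTP4 passed the filter only through their medium MYC libraries, so their direction there was tied to the filter.

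Genes that sense nucleic acids, upstream of interferon production, formed another list. Of 15 tested, 7 fell and 0 rose at high MYC and 8 fell and 0 rose at medium MYC. Among all genes, 16.3% and 14.6% were called lower in turn. The difference in response was positive in 3, IKBKE, CGAS and IRAK1, and negative in 2, against 3.31% and 5.33% of all genes. CGAS, the cytosolic DNA sensor, stood at 447 to 477 with DMSO and 440.3 to 493 with IMP1088 at high MYC, with overlap, and at 569 to 597 with DMSO and 475 to 531 with IMP1088 at medium MYC, without it (log2 -0.22, adjusted p = 0.0012). IKBKE, a kinase that activates IRF3 and IRF7, changed by -0.15 (adjusted p = 0.084) at high MYC and -0.55 (adjusted p = 9.5e-07) at medium MYC. IRAK1, a kinase of the Toll-like receptors, changed by -0.02 (adjusted p = 0.73) and -0.19 (adjusted p = 2.9e-04). The negative genes, named after their values were seen, were RIGI and ZBP1, both sensors that interferon induces, with differences of -0.28 (adjusted p = 0.038) and -0.38 (adjusted p = 0.038).

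Among 10 negative regulators of the pathway, 2 fell and 1 rose at high MYC, and 1 fell and 1 rose at medium MYC, which is near the shares over all genes. PTPN6, which encodes the phosphatase SHP-1, had the largest change of the 10. It stood at 1762, 1627, 1638 and 1613 with DMSO and 791, 695, 802 and 752 with IMP1088 at high MYC. At medium MYC it stood at 3009, 3080.4, 3285 and 2998 with DMSO and 1857, 1906, 1795 and 1818 with IMP1088. PTPN6 fell at both levels without overlap, by log2 -1.13 (SE 0.04) and -0.75 (SE 0.04), with a difference of -0.38 (adjusted p = 2.2e-04). The gene that rose at high MYC was SOCS1, a feedback inhibitor of the JAK kinases, named after its values were seen (log2 0.46, SE 0.13, adjusted p = 0.012).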

How the data were processed

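Whole-cell RNA from 16 libraries of P493-6 cells was sequenced on an Illumina instrument after Nugen cDNA preparation, per the labels' protocols. The submitters' processing notes name STAR 2.5.2a, RSEM 1.2.31, DESeq2 1.16.1 and GRCh38, and the gene annotation and the use of strand are not given in the sources used here. The signal values that the authors deposited are normalized counts per gene, which are counts divided by a size factor. Each library's size factor was inferred as the inverse of its smallest nonzero value, taken as a single read. Every value became a whole number of reads when multiplied by this factor (100% of values within 0.001 reads). The inferred size factors ran from 0.858 to 1.33.

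Values were tested as log2(value + 1) with limma 3.58.1 in R 4.3.3 (a mean for each of the 4 groups, all 16 libraries in one fit, mean-variance trend), over 13765 genes whose mean reached 10. P-values were two-sided and adjusted by Benjamini-Hochberg over all genes tested, and calls needed an adjusted p under 0.05. Alternatives were count models fitted to the recovered reads (edgeR 4.0.16, DESeq2 1.42.0), other scalings, pseudocounts, filters and designs, and leaving out each library. The script was tested on simulated counts with a spread set in advance. There limma recovered 51 of 65 changes of log2 0.5 in the response at high MYC and 37 of 65 in the difference. It also called 8 and 11 unchanged genes in turn. Differences of that size or smaller may therefore go uncalled. Gene positions and exon overlaps are from GENCODE 29 (GRCh38), and promoters from RefSeq (GRCh38.p14). The members and the gene lists were chosen with earlier results of these data known. Values in every library are given for the 3 regulators, for the 12 effectors with the smallest p for the difference in response and the 4 further effectors with the largest difference between MYC levels with DMSO (means of at least 50), for IFNAR1, IFNAR2, JAK1, TYK2 and IRF1, and for up to 3 genes of each pathway list called in the difference; some are shortened to ranges. A gene that falls under these rules is not reported here. Other members are given by log2 change or range. In the groups of 4, each value's precision is limited by counting error and by the number of libraries.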

Additional observations from a re-analysis of the deposited data

Results flagged for a closer look

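The response to IMP1088 differed between high and medium MYC in 22 members (interaction term in limma, adjusted p under 0.05). On the log2 scale it was always more negative at high MYC. The order can differ in normalized counts, as it does for PARP14. The log2 differences of the IFIT, MX and OAS genes were -0.84 for IFIT1, -0.53 for IFIT3, -0.42 for MX1, -0.28 for OAS1, -0.15 for OAS2 and -0.94 for OASL. They were -0.47 for ISG15, -0.58 for HERC6, -0.54 for DDX60, -0.73 for IFI6, -0.43 for IFI44 and -0.32 for IFI44L. For PARP9, DTX3L and PARP14 they were -0.43, -0.21 and -0.21. Among the other effectors they were -0.82 for RSAD2, -0.59 for CMPK2, -0.31 for XAF1, -0.35 for SAMD9L and -0.22 for BST2, the calls of RSAD2 and BST2 being lost in 2 and 9 of 28 alternative fits. The regulators STAT2 and IRF7 had -0.19 and -0.51. The calls of STAT2 and OAS2 were lost in 16 and 11 of the 28 alternative fits.

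In 13 of 152 groups of 4 libraries, 1 library stood far from the other 3 by Dixon's criterion, which chance meets in about 1 group in 20. Of these, 5 were in medium MYC DMSO libraries, with 4 of them in replicate 3. That replicate had 1320 for OAS3, 885 for IFI6, 4441 for IFI44L and 1289 for IRF7. XAF1 stood at 1477 in medium MYC DMSO replicate 4. In high MYC DMSO libraries, OAS1 had 695 in replicate 4, OAS3 83.9 and LGALS3BP 192 in replicate 3, and SAMD9L 1207 in replicate 4. In high MYC IMP1088 libraries, EPSTI1 had 364 in replicate 4, and LGALS3BP 124 and PLSCR1 1.11 in replicate 2. IFIT2 had 828 in medium MYC IMP1088 replicate 1.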

How the results depend on the processing

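There were 29 alternatives for each response to the inhibitor and 28 for the difference and for MYC level, 16 of each leaving out 1 library. None turned the sign of a member median given here or of a called member. The balance of calls over all genes at medium MYC did turn, from 1606 higher and 2012 lower to 1962 and 1658 with equal library totals, and the median over all genes for MYC level with DMSO went from 0.02 to -0.04 with quantile normalization. Members called lower at high MYC numbered 28 to 31, at medium MYC 15 to 17, and in the difference 18 to 23. The median log2 change at high MYC was -0.54 with a pseudocount of 0.1, -0.46 with 10, -0.53 with edgeR and -0.54 with DESeq2, and -0.54 to -0.46 without 1 library. At medium MYC 1 member was called higher with a filter at a mean of 100, equal library totals, TMM factors or only the compared groups fitted, and 2 with quantile normalization or edgeR, and 0 to 1 without 1 library. The median there was -0.13 with equal totals, -0.12 with quantile normalization and -0.17 to -0.14 without 1 library. The median difference in response was -0.31 to -0.27 without 1 library, with 19 to 23 members called. For MYC level, the median with DMSO was 1.26 with no filter and 1.22 to 1.26 without 1 library. With IMP1088 it was 1.55 with a pseudocount of 10, 1.56 with no filter or a filter at 100, and 1.54 to 1.59 without 1 library. There 1 member was lower with no filter, equal totals, no mean trend or only the compared groups fitted, and 1 to 2 without 1 library. The cause of these shifts was not tested.

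Deviations of same-numbered libraries from their group means correlated between -0.15 and 0.24 over 16 pairs, with 1 above 0.1. Such correlations cannot settle whether same-numbered libraries were handled together, and the main fit used no pairing. With the replicate block, 30 members were lower at high MYC, 15 at medium MYC and 21 in the difference, and STAT2 lost both of its calls. HERC5 and PLSCR1 are limited by depth, with at most 4 reads of HERC5 in a high MYC library.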
